A study of Homo sapiens with 6 samples.

Results

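The genes examined were the core of the YAP/TEAD pathway and its best-known transcriptional outputs in DU145, an established human prostate cancer cell line. They were taken by symbol from the deposited expression table: YAP1 and WWTR1, TEAD1, LATS1 and LATS2, AMOTL1 and AMOTL2, and ANKRD1, CCN1 and CCN2. All 10 symbols were found, each in 1 row, among 19727 genes, and all 10 passed the filter on low values. The list was drawn up with earlier results of these data known.

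In the Hippo pathway, the kinases LATS1 and LATS2 phosphorylate the coactivators YAP1 and TAZ (encoded by WWTR1) and keep them out of the nucleus. Unphosphorylated YAP1 and TAZ bind the TEAD transcription factors and switch on genes such as CCN1, CCN2 and ANKRD1. Angiomotin-family proteins, among them AMOTL1 and AMOTL2, hold YAP1 in the cytoplasm and at cell junctions. AMOTL2 and LATS2 are themselves YAP/TEAD targets, so the pathway feeds back on itself. YAP1 activity is set mainly by phosphorylation and location, which messenger RNA levels do not measure.

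DU145 cells carrying lentivirus-circCSPP1, which overexpresses the circular RNA circCSPP1, were compared with DU145 cells carrying the control virus lentivirus-NC, with 3 libraries in each group. Both stable lines were selected with puromycin, and an effect of circCSPP1 cannot be told apart from one of its vector or of the line made with it. The sources do not say whether the replicates of a group came from separate cultures, so p-values measure the spread between these samples, which may be technical. The values are FPKM, fragments per kilobase of transcript and relative to the size of the library, from polyadenylated RNA. In bulk RNA, fewer cells with a transcript and less of it per cell cannot be told apart.

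The libraries held about 28850000 to 36700000 fragments, as read from the steps between low FPKM values. CSPP1, the host gene of the circle, measured 9.11 to 10.1 FPKM in the lentivirus-NC libraries and 14.5 to 22.8 FPKM in the lentivirus-circCSPP1 libraries. A gene-level value does not separate the circle from the linear transcript. By qRT-PCR, the paper reported a rise of circCSPP1 but not of CSPP1 mRNA in its overexpressing lines. Which transcript gave the higher value in polyadenylated RNA was not tested. Lentivirus-circCSPP1 replicate 1 stood apart from the rest of its group. Over the 7663 genes at a mean of 10 FPKM or more, its departure from replicates 2 and 3 had a Spearman correlation of 0.81 with the GC content of the transcript. The same correlation was -0.75 for replicate 2 and -0.55 for replicate 3, each set against a mean that includes replicate 1, and lay between -0.080 and 0.11 in the lentivirus-NC libraries. The epithelial markers EPCAM, KRT8, KRT18, KRT19 and CDH1 were present in every library. All 5 epithelial markers fell with lentivirus-circCSPP1, and their sum went from 2271 to 2361 FPKM in lentivirus-NC to 1046 to 1278 FPKM in lentivirus-circCSPP1; the part of this in the results below was not tested. Markers of fibroblasts (6 genes, of which 1, COL1A1, was tested and fell), endothelial cells (3 genes) and immune cells (4 genes) summed to at most 4.39, 0.62 and 0.25 FPKM, with LUM and CD3E listed at 0 in all 6 libraries.

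Of the 10 genes, 3 rose with lentivirus-circCSPP1 and 1 fell, while the coactivators YAP1 and WWTR1, TEAD1 and both LATS kinases did not pass the test. AMOTL2, CCN1 and CCN2 rose by log2 fold changes of 0.48, 0.46 and 0.88. ANKRD1 fell by 0.93 on the log2 scale. Thus 4 of the 10 genes had an adjusted p under 0.05 (limma on log2(FPKM + 1), Benjamini-Hochberg adjustment over 12322 tested genes), against 11.4% of all tested genes; 3 were higher, against 4.69%, and 1 was lower, against 6.66%. All tested genes split into 578 higher and 821 lower, and into 1816 and 1707 once GC content and length of the transcripts were corrected for within each library. In the same 4 genes the values of the groups did not overlap, which held for 36.4% of all tested genes. The median log2 fold change was 0.07 over the 10 genes and -0.03 over all tested genes. None of the 10 reached an absolute log2 fold change of 1.5 with an unadjusted p under 0.01, the study's thresholds, which 0.195% of tested genes met. On the log2(FPKM + 1) scale, fold changes of genes at low FPKM come out smaller than the ratio of their means.

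**Figure D1:**
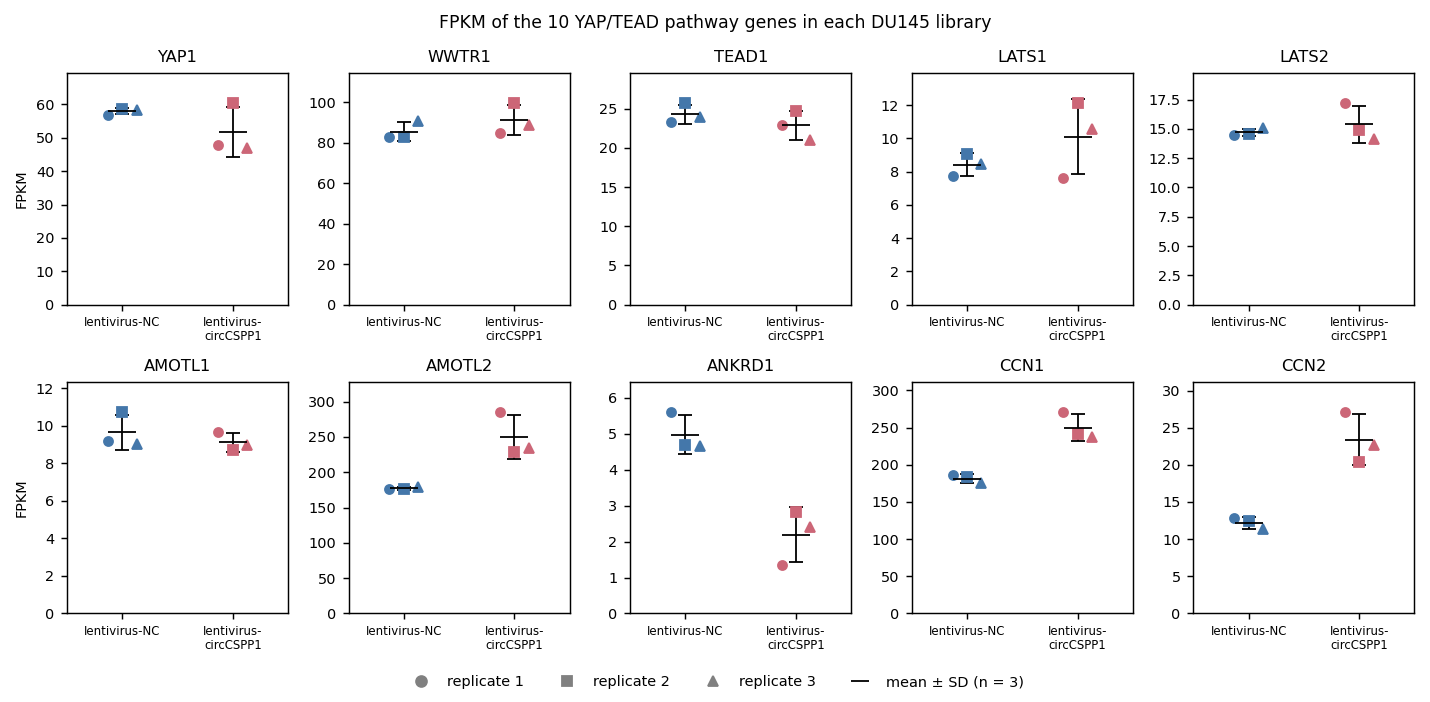
FPKM (vertical axes, each from 0) of the 10 pathway genes in the lentivirus-NC and lentivirus-circCSPP1 libraries; symbols mark replicates 1, 2 and 3, and black bars the mean ± SD of 3 libraries. The groups are apart in AMOTL2, ANKRD1, CCN1 and CCN2 and overlap in the other 6 genes.

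Per kilobase of transcript, CCN1 and AMOTL2 were the most abundant of the 10 genes and ANKRD1 the least abundant, in both groups. In lentivirus-NC the order of mean FPKM was CCN1 (181), AMOTL2 (178), WWTR1 (85.5), YAP1 (58.0), TEAD1 (24.3), LATS2 (14.7), CCN2 (12.2), AMOTL1 (9.64), LATS1 (8.41) and ANKRD1 (4.98). The ranges of CCN1 and AMOTL2 overlapped, as did those of AMOTL1 and LATS1, and the other neighbours were apart. In lentivirus-circCSPP1, CCN2 moved up to a mean of 23.4 FPKM, next to TEAD1 at 22.9, and the ranges of these neighbours overlapped. Those of CCN1 and AMOTL2, and of LATS1 and AMOTL1, overlapped there too.

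YAP1 lies on chromosome 11 (GRCh38, 102110461 to 102233423, plus strand, GENCODE). In the order of the replicate numbers, as in all such values below, its FPKM was 56.9, 58.6 and 58.3 in lentivirus-NC and 47.8, 60.3 and 47.0 in lentivirus-circCSPP1. Replicates 1 and 3 of lentivirus-circCSPP1 were below every lentivirus-NC library, and replicate 2 was above them. YAP1 had a log2 fold change of -0.17 (SE 0.11, 95% confidence interval -0.43 to 0.089, adjusted p = 0.36 from limma). WWTR1, on chromosome 3 (149517235 to 149736714, minus strand), encodes TAZ, the paralog of YAP1. It measured 83.1, 82.8 and 90.8 FPKM in lentivirus-NC and 84.9, 99.4 and 89.0 FPKM in lentivirus-circCSPP1, so the groups overlapped. Its log2 fold change was 0.09 (95% confidence interval -0.12 to 0.30, adjusted p = 0.57 from limma). The intervals leave room for a fall of YAP1 by 0.43 or a rise of WWTR1 by 0.30 on the log2 scale.

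TEAD1, the DNA-binding partner in the list, lies on chromosome 11 (12674591 to 12944483, plus strand). It measured 23.3, 25.7 and 23.9 FPKM in lentivirus-NC and 22.9, 24.7 and 21.0 FPKM in lentivirus-circCSPP1, with overlapping groups and a log2 fold change of -0.08 (95% confidence interval -0.32 to 0.15, adjusted p = 0.63 from limma). TEAD1 was not the most abundant TEAD factor in these cells. TEAD4 measured 31.5, 30.8 and 31.8 FPKM in lentivirus-NC and 46.2, 35.8 and 36.1 FPKM in lentivirus-circCSPP1. The groups did not overlap, and the log2 fold change of 0.31 had an adjusted p of 0.13 (limma). The adjusted p became 0.0093 after the correction for GC content and length, a setting in which 28.6% of tested genes passed. Without lentivirus-circCSPP1 replicate 1, where 28.5% passed, the log2 fold change of TEAD4 was 0.19 (adjusted p = 0.052 from limma). For TEAD2 the log2 fold change was -0.27 with an adjusted p of 0.17, and for TEAD3 it was -0.05 with an adjusted p of 0.86. Of the 7 TEAD and VGLL genes outside the list, 4 were tested and 0 passed an adjusted p of 0.05 in limma, against 11.4% of all tested genes, while 2, TEAD2 and TEAD4, had an unadjusted p under 0.05, against 28.2%. Of the VGLL cofactors, which compete with YAP1 and TAZ for TEAD, VGLL1, VGLL2 and VGLL3 were listed at 0 in all 6 libraries. VGLL4 was expressed, at 31.26, 28.95 and 31.42 FPKM in lentivirus-NC and 35.02, 21.24 and 36.61 FPKM in lentivirus-circCSPP1. Its groups overlapped (log2 fold change -0.02, adjusted p = 0.97 from limma).

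LATS1 lies on chromosome 6 (149658153 to 149718256, minus strand) and measured 7.71, 9.07 and 8.46 FPKM in lentivirus-NC and 7.63, 12.1 and 10.6 FPKM in lentivirus-circCSPP1. Replicate 1 of lentivirus-circCSPP1 was below all the other libraries, and replicates 2 and 3 were above them. The log2 fold change was 0.22 (95% confidence interval -0.17 to 0.61, adjusted p = 0.44 from limma). It passed the test without lentivirus-circCSPP1 replicate 1 (0.39, adjusted p = 0.034) and after the correction for GC content and length (0.27, adjusted p = 0.033), settings in which 28.5% and 28.6% of tested genes passed. LATS2, on chromosome 13 (20973032 to 21061547, minus strand), is the LATS kinase that YAP/TEAD induces. It measured 14.5, 14.6 and 15.1 FPKM in lentivirus-NC and 17.2, 14.9 and 14.2 FPKM in lentivirus-circCSPP1. Lentivirus-circCSPP1 replicate 1 was above the lentivirus-NC range, replicate 2 within it and replicate 3 below it, and the log2 fold change was 0.06 (95% confidence interval -0.19 to 0.31, adjusted p = 0.77 from limma).

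AMOTL2 lies on chromosome 3 (134355874 to 134375479, minus strand) and encodes angiomotin-like 2, a junctional scaffold. Its FPKM was 176, 176 and 180 in lentivirus-NC and 285, 229 and 235 in lentivirus-circCSPP1. Every lentivirus-circCSPP1 library was above every lentivirus-NC library, and replicate 1 was the highest. The mean FPKM was 178 ± 1.99 with lentivirus-NC and 250 ± 31.0 with lentivirus-circCSPP1 (SD, n = 3), a ratio of 1.41. This gave a log2 fold change of 0.48 (SE 0.097, 95% confidence interval 0.26 to 0.71, adjusted p = 0.022 from limma). It was 0.38 (adjusted p = 0.0032 from limma) without lentivirus-circCSPP1 replicate 1, a setting in which 28.5% of tested genes passed. Neither paralog passed the test. AMOTL1, on chromosome 11 (94706431 to 94876753, plus strand), measured 9.03 to 10.7 FPKM in lentivirus-NC and 8.71 to 9.67 FPKM in lentivirus-circCSPP1 (log2 fold change -0.07, adjusted p = 0.73 from limma). AMOT, the founding angiomotin, measured 2.74 to 3.07 and 2.21 to 2.47 FPKM (log2 fold change -0.23, adjusted p = 0.19 from limma).

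TEAD factors recognise the letters GGAATG, or CATTCC on the opposite strand, and these are shown for the 3 genes that passed the test and held a match. The windows of 250 bases before to 50 bases after the RefSeq transcription starts (GRCh38.p14) were searched on both strands. Entries were found for 8 of the 10 genes (11 starts); CCN1 and TEAD1 had none. The letters were present in 5 of the 11 windows, from AMOTL2, ANKRD1, CCN2, LATS2 and YAP1, and in 14.0% of all 35116 promoter windows. Capitals mark the match, and each sequence is written 5′ to 3′ on the strand of the gene.
CCN2, chr6:131951524-131951553, minus strand, match 169 bases before the start: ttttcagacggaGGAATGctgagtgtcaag
CCN2, chr6:131951455-131951483, minus strand, matches 104 and 95 bases before the start: gtggggaGGAATGcgaGGAATGtccctgt
ANKRD1, chr10:90921290-90921319, minus strand, match 220 bases before the start: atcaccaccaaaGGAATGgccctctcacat
ANKRD1, chr10:90921198-90921227, minus strand, match 128 bases before the start: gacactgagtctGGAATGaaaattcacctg
AMOTL2, chr3:134374499-134374528, minus strand, match 69 bases before the start: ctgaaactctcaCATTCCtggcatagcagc

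CCN2 thus held 3 matches, ANKRD1 2 and AMOTL2 1, so matches were present both in genes that rose and in the gene that fell, and also in YAP1 and LATS2, which did not pass the test. For AP-1, a factor that often binds beside TEAD, the search used TGANTCA, where N is any base. This is wider than the usual AP-1 site, which has C or G at the centre. The wider pattern was found in 2 of the 11 windows, of ANKRD1 and LATS1, and in 7.71% of all windows. The match was TGATTCA in ANKRD1 and TGAATCA in LATS1, so neither was the usual site. The AMOTL2 match and the ANKRD1 match at 128 bases lie inside the GENCODE extent of the gene, because the RefSeq start used there lies inside it too. A match is a run of letters and not evidence of binding.

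CCN1 and CCN2 encode secreted matricellular proteins of the CCN family, which signal through integrins, and both are standard readouts of YAP/TEAD. CCN1 lies on chromosome 1 (85580761 to 85583962, plus strand) and measured 186, 183 and 175 FPKM in lentivirus-NC and 271, 241 and 237 FPKM in lentivirus-circCSPP1. The lowest lentivirus-circCSPP1 library was well above the highest lentivirus-NC library. The log2 fold change was 0.46 (SE 0.079, 95% confidence interval 0.27 to 0.64, adjusted p = 0.014 from limma). CCN2, on chromosome 6 (131948176 to 131951373, minus strand), carries the TEAD letters shown above and was much less abundant. It measured 12.9, 12.4 and 11.3 FPKM in lentivirus-NC and 27.1, 20.4 and 22.6 FPKM in lentivirus-circCSPP1. Its mean went from 12.2 ± 0.822 to 23.4 ± 3.42 FPKM (SD, n = 3 in each group), a ratio of 1.91, and the log2 fold change was 0.88 (SE 0.13, 95% confidence interval 0.58 to 1.17, adjusted p = 0.0081 from limma). CCN2 passed an adjusted p of 0.05 under each of the 18 alternatives run. Of the 4 other CCN genes, CCN5 alone was tested, named here after its values were seen; it measured 8.94 to 9.91 FPKM in lentivirus-NC and 12.1 to 20.1 FPKM in lentivirus-circCSPP1 (log2 fold change 0.61, adjusted p = 0.075 from limma).

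ANKRD1 encodes a cardiac ankyrin repeat protein that is also widely used as a YAP/TEAD readout, and it moved the opposite way. It lies on chromosome 10 (90912096 to 90921276, minus strand). Its FPKM was 5.60, 4.68 and 4.65 in lentivirus-NC and 1.34, 2.83 and 2.40 in lentivirus-circCSPP1. Every lentivirus-circCSPP1 library was below every lentivirus-NC library, with replicate 1 the lowest. The mean went from 4.98 ± 0.540 to 2.19 ± 0.767 FPKM (SD, n = 3 in each group), a ratio of 0.44. The log2 fold change was -0.93 (SE 0.19, 95% confidence interval -1.38 to -0.48, adjusted p = 0.024 from limma), and with a pseudocount of 0.01 in place of 1 it was -1.24. Given each library's depth, ANKRD1 rested on about 270 to 338 fragments per lentivirus-NC library and 86 to 195 per lentivirus-circCSPP1 library. Leaving out lentivirus-circCSPP1 replicate 1 gave ANKRD1 a log2 fold change of -0.72 (adjusted p = 0.0081).

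The calls of AMOTL2, CCN1 and ANKRD1 did not survive the loss of any 1 control library. Without lentivirus-NC replicate 1, 2 or 3 the adjusted p was 0.097, 0.10 and 0.085 for AMOTL2, 0.068, 0.073 and 0.074 for CCN1, and 0.10, 0.088 and 0.079 for ANKRD1, with CCN2 then the single gene of the 10 that passed. In these 3 fits 2.38%, 2.52% and 3.28% of all tested genes passed. The log2 fold changes were 0.48, 0.48 and 0.49 for AMOTL2, 0.47, 0.47 and 0.43 for CCN1, and -0.86, -0.97 and -0.97 for ANKRD1. Without lentivirus-circCSPP1 replicate 3, where 3.73% of tested genes passed, the adjusted p was 0.062 for AMOTL2 and 0.066 for ANKRD1. Without moderation of the variance, where 6.77% passed, it was 0.076 for AMOTL2 and 0.099 for ANKRD1.

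**Figure D2:**
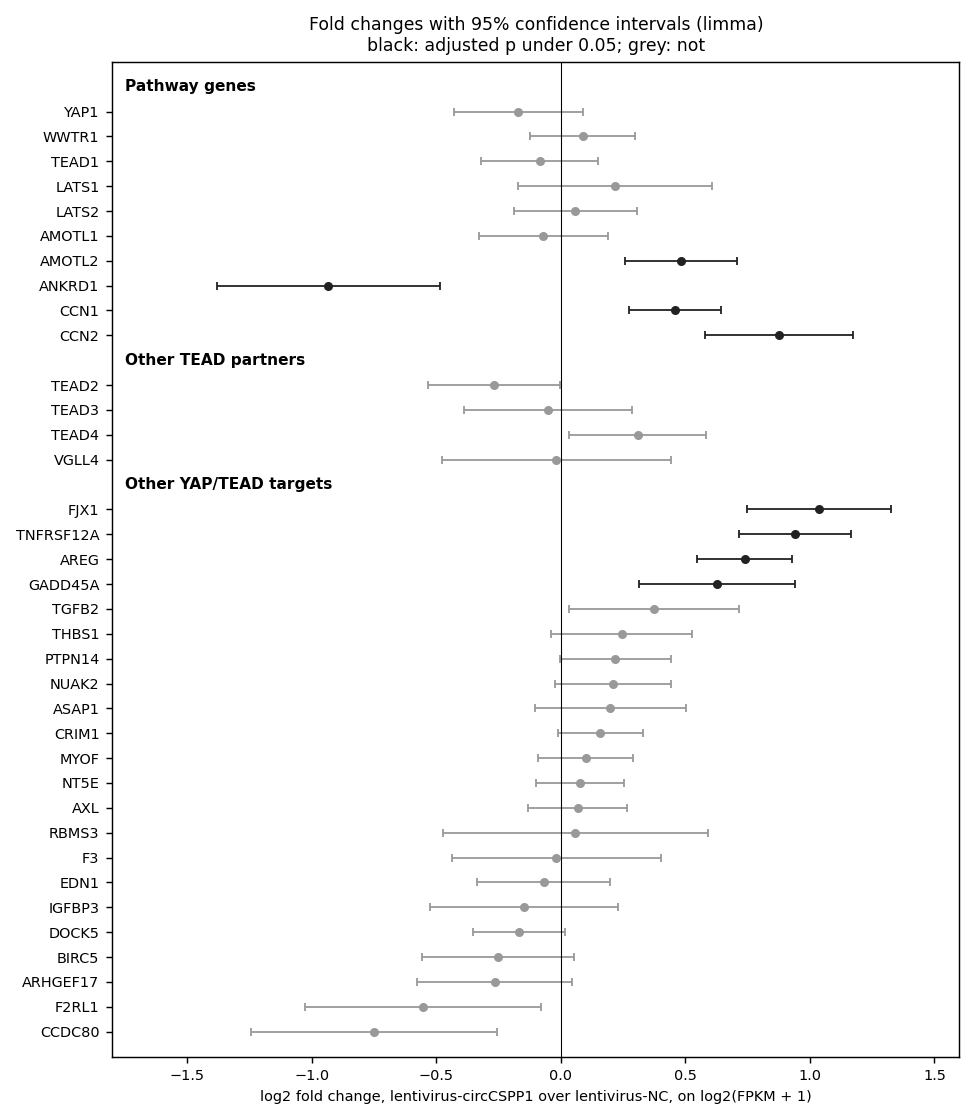
Log2 fold change of lentivirus-circCSPP1 over lentivirus-NC on log2(FPKM + 1) (horizontal axis) with 95% confidence intervals from limma, for the 10 pathway genes, the 4 tested TEAD partners and the 22 tested other targets, with genes that had an adjusted p under 0.05 in black. ANKRD1, at -0.93, is the single black point below 0; AMOTL2, CCN1, CCN2, FJX1, TNFRSF12A, AREG and GADD45A are above 0.

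Among other YAP/TEAD targets, FJX1, TNFRSF12A, AREG and GADD45A rose. Of 25 such genes, 22 were tested. At an adjusted p of 0.05 in limma 4 rose and 0 fell, against 4.69% and 6.66% of all tested genes, and the other 18 had log2 fold changes between -0.75 and 0.37. In 9 of the 22 every lentivirus-circCSPP1 library was above every lentivirus-NC library, against 16.0% of all tested genes, and in 2 every one was below, against 20.5%. The median log2 fold change of the 22 was 0.09, and 7 had an unadjusted p under 0.05 in limma, a share near the 28.2% of all tested genes. The absence of falls depended on the setting, and both exceptions are named after their values were seen. CCDC80 (log2 fold change -0.75, adjusted p = 0.062 from limma) fell after the correction for GC content and length (-0.69, adjusted p = 0.046). ARHGEF17 (-0.27, adjusted p = 0.25) fell without lentivirus-circCSPP1 replicate 1 (-0.40, adjusted p = 0.010). In those settings 28.6% and 28.5% of tested genes passed, in that order. Among the 16 tested genes of a conserved target signature 2 rose in the main fit, and among 6 other widely used targets 2 rose.

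FJX1, which encodes a secreted relative of the Drosophila four-jointed protein, a component of Fat and Hippo signalling, measured 21.0, 17.7 and 22.6 FPKM in lentivirus-NC and 47.9, 39.2 and 41.7 FPKM in lentivirus-circCSPP1 (log2 fold change 1.04, adjusted p = 0.0046 from limma). TNFRSF12A, the receptor of the cytokine TWEAK, measured 150, 132 and 155 FPKM and then 308, 271 and 263 FPKM (log2 fold change 0.94, adjusted p = 0.0029). Neither gene had overlapping groups, and both passed under each of the 18 alternatives. AREG, which encodes the EGFR ligand amphiregulin, measured 101, 106 and 93.4 FPKM in lentivirus-NC and 171, 173 and 159 FPKM in lentivirus-circCSPP1 (log2 fold change 0.74, adjusted p = 0.0037) and also passed under all 18. GADD45A, a growth arrest gene that responds to many forms of cell stress, measured 29.5 to 37.8 FPKM and then 47.0 to 60.9 FPKM (log2 fold change 0.63, adjusted p = 0.028). Its adjusted p was 0.11, 0.064 and 0.10 without lentivirus-NC replicate 1, 2 or 3 0.062 without lentivirus-circCSPP1 replicate 3, and 0.098 without moderation of the variance.

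**Figure D3:**
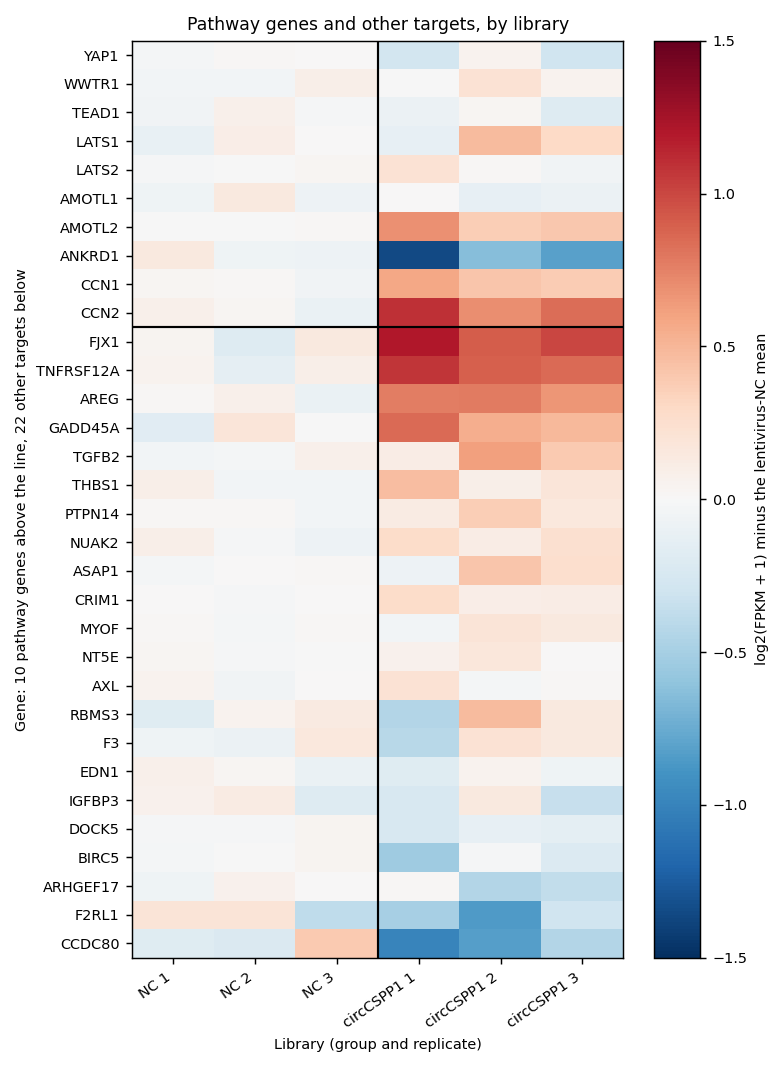
Colour gives log2(FPKM + 1) minus the lentivirus-NC mean of the gene in each of the 6 libraries (columns), for the 10 pathway genes (above the horizontal line) and 22 other targets sorted by fold change (below it). AMOTL2, CCN1, CCN2, FJX1, TNFRSF12A, AREG and GADD45A are red in all 3 lentivirus-circCSPP1 libraries and ANKRD1 is blue in all 3.

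Of 34 other Hippo pathway genes 31 were tested, and their median log2 fold change was 0.05. Of these, 1 rose and 0 fell, against 4.69% and 6.66% of all tested genes. The groups did not overlap in 5, against 36.4%, and 3 had an unadjusted p under 0.05 (limma), against 28.2%, so each share was below that of all tested genes. The kinases and adaptors next to LATS, which are STK3, STK4, SAV1, MOB1A and MOB1B, were all tested and 0 of the 5 passed in limma, and 0 of the 7 STRIPAK phosphatase genes passed. The gene that rose was FAT4, an atypical cadherin upstream of the pathway, with 1.16, 1.17 and 1.18 FPKM in lentivirus-NC and 1.83, 1.81 and 1.88 FPKM in lentivirus-circCSPP1 (log2 fold change 0.39, adjusted p = 0.041 from limma). This call was lost, with an adjusted p of 0.13 to 0.16, without lentivirus-NC replicate 1, 2 or 3 or lentivirus-circCSPP1 replicate 3, and at 0.073 without lentivirus-circCSPP1 replicate 2. After the correction for GC content and length 5 of the 31 passed, against 28.6% of all tested genes.

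Ratios and shares within a library do not depend on how the libraries were scaled, while sums of FPKM do. They were not corrected for GC content, so they can carry the GC-linked departure of lentivirus-circCSPP1 replicate 1. On log2(FPKM + 1), CCN2 was 0.32 higher and ANKRD1 0.62 lower in that replicate than in the mean of replicates 2 and 3. In all, 9 ratios, shares and sums were compared, chosen after the values had been seen. The ratio of WWTR1 to YAP1 was 1.46, 1.41 and 1.56 in lentivirus-NC and 1.78, 1.65 and 1.89 in lentivirus-circCSPP1. The ratio was higher in every lentivirus-circCSPP1 library than in any lentivirus-NC library, while the sum of the 2 coactivators was 143 ± 4.88 and 143 ± 14.7 FPKM (SD, n = 3). The summed FPKM of TEAD1 to TEAD4 was 87.0 ± 2.99 and 90.4 ± 8.09 (SD, n = 3), and the share of TEAD4 in it was 34.0% to 37.2% in lentivirus-NC and 41.1% to 46.4% in lentivirus-circCSPP1. The ratio of CCN1 to CCN2 was 14.4 to 15.5 in lentivirus-NC and 9.99 to 11.9 in lentivirus-circCSPP1, with no overlap between the groups. The ratio of CCN2 to ANKRD1 was 2.30, 2.66 and 2.43 in lentivirus-NC and 20.2, 7.19 and 9.43 in lentivirus-circCSPP1, and that of AMOTL2 to AMOTL1 was 16.5 to 19.9 and 26.2 to 29.5. For the 5 quantities whose groups did not overlap, which are these 4 ratios and the share of TEAD4, the exact two-sided permutation test gave p = 0.10, the smallest that 3 libraries against 3 allow, and 0.18 after adjustment over the 9. The ratio of LATS2 to LATS1 overlapped, at 1.61 to 1.88 and 1.23 to 2.25 (exact permutation p = 0.50; 0.64 adjusted).

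**Figure D4:**
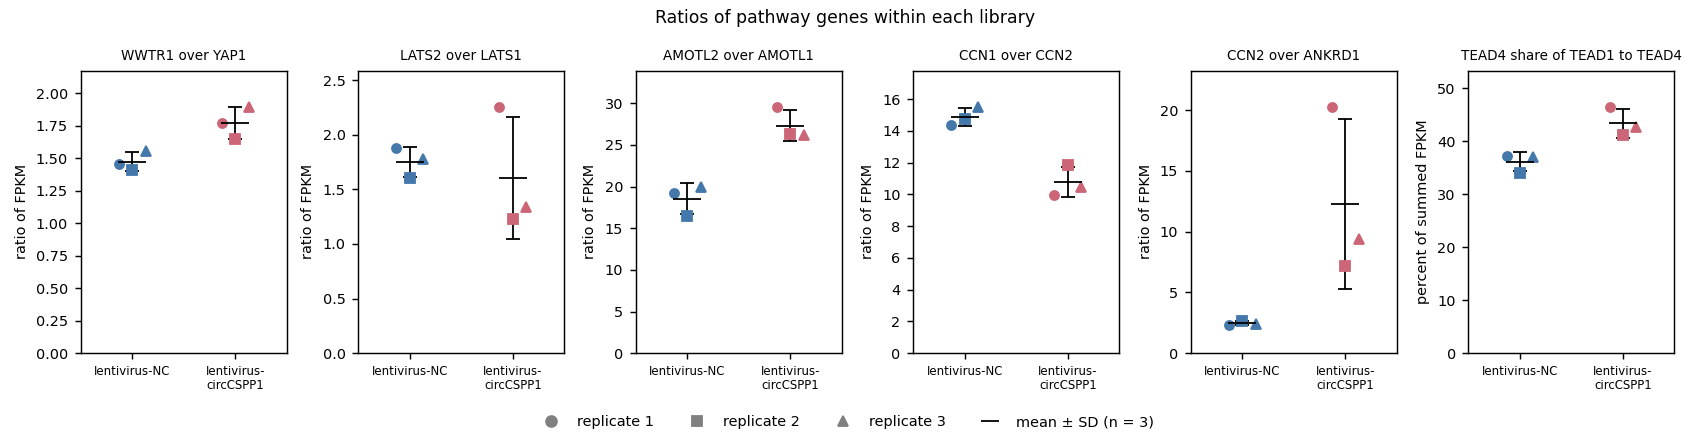
Ratios of FPKM between pairs of pathway genes, and the share of TEAD4 in the summed FPKM of TEAD1 to TEAD4 in percent (vertical axes, each from 0), in the lentivirus-NC and lentivirus-circCSPP1 libraries, with symbols for replicates and black bars for the mean ± SD (n = 3). The groups overlap in LATS2 over LATS1 alone, and replicate 1 of lentivirus-circCSPP1 is highest in CCN2 over ANKRD1, at 20.2.

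Replicate 1 of lentivirus-circCSPP1 departed from replicates 2 and 3 by different amounts in GC-rich and GC-poor transcripts of the pathway. In 9 of the 10 genes the range on log2(FPKM + 1) was wider in lentivirus-circCSPP1 than in lentivirus-NC, AMOTL1 being the exception. The wider spread was not particular to these genes. Over all tested genes, libraries correlated at 0.9914 to 0.9915 within lentivirus-NC and at 0.9697 to 0.9898 within lentivirus-circCSPP1. The share of all tested genes with a wider range was not computed. LATS1, with a GC content of 39.7% in its longest protein-coding transcript, was 0.51 lower in replicate 1 than in the mean of replicates 2 and 3. ANKRD1, at 43.3% GC, was 0.62 lower in replicate 1. AMOTL2, at 56.7% GC, was 0.30 higher, and CCN2, at 51.5%, was 0.32 higher. Over the 10 genes, which share these libraries, the Spearman correlation of this departure with GC content was 0.83, given as a description. After the correction for GC content and length, the log2 fold changes were 0.51 for AMOTL2, 0.46 for CCN1, 0.88 for CCN2 and -0.89 for ANKRD1 (adjusted p from 0.0012 to 0.0048 in limma). In that setting 28.6% of tested genes passed.

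**Figure D5:**
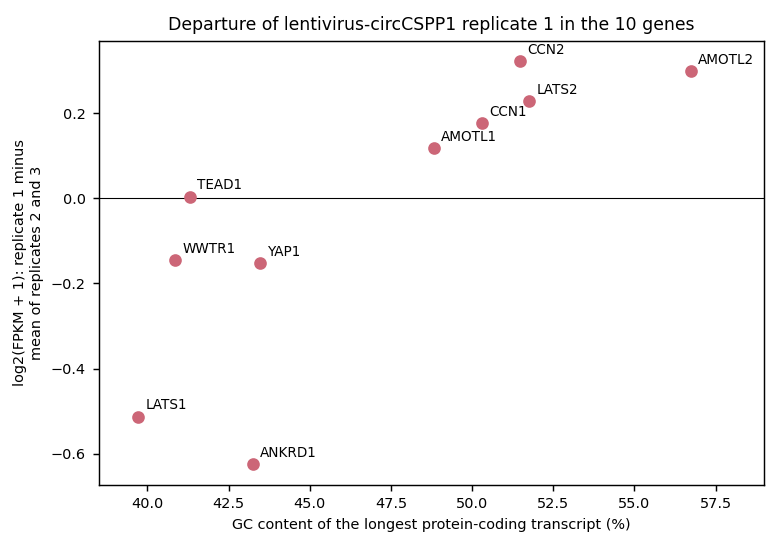
Each point is 1 of the 10 pathway genes, placed by the GC content of its longest protein-coding transcript in percent (horizontal axis) and by log2(FPKM + 1) in lentivirus-circCSPP1 replicate 1 minus the mean of replicates 2 and 3 (vertical axis). The 5 genes above 48% GC are above 0, and LATS1 and ANKRD1 are the lowest, at -0.51 and -0.62.

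In GENCODE, 8 of the 10 genes overlap another annotated gene, and 7 of them overlap one on the opposite strand; ANKRD1 and CCN1 overlap none. The strand setting of the authors' counting is not given in the sources used here, so for the 7 genes, CCN2 included, fragments of the gene and of its antisense partner may not have been separated. AMOTL2 overlaps the pseudogene RPL39P5 and the microRNA MIR6827 on its own strand.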

How the data were processed

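Polyadenylated RNA of 6 DU145 libraries was sequenced in paired-end mode, and the authors deposited 1 table of FPKM values, rounded to 2 decimals, for 19727 genes. The submitters' processing notes name build hg38; the aligner, the counting program and the annotation are not given in the sources used here. Columns were matched to samples by group and replicate number, and 0 sample columns were left unused.

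FPKM is not a count, so no count model was fitted. Values were taken to log2(FPKM + 1), and limma 3.58.1 (R 4.3.3) was run on the 12322 genes whose mean reached 1 FPKM, with trended eBayes, a two-sided test and no covariate, and with Benjamini-Hochberg adjustment over these genes and a threshold of 0.05. The fit was tested on simulated data with noise drawn independently for each gene. Of 200 changes of 1 on the log2 scale it recovered 75.5%, and it called 0.082% of unchanged genes. The simulation held no GC-linked departure of a library, so it does not cover that feature of lentivirus-circCSPP1 replicate 1. Depth was read from genes with 1 transcript under 800 nt in GENCODE release 29, where FPKM multiplied by length fell within 0.15 of a whole multiple for 92.1% to 98.4% of values. GC content, length and positions come from GENCODE release 29, and promoters from RefSeq (GRCh38.p14). The FPKM of a gene also depends on the share of the library that all other genes take.

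The 10 genes and the lists (34 other Hippo pathway genes, 7 TEAD partners, 25 other targets, 4 CCN genes and the cell type markers) were chosen with earlier results of these data known. The values of 1 marker list are not reported here. The genes named were the 10, the genes of each list with an adjusted p under 0.05, and TEAD2, TEAD3, TEAD4 and AMOT; genes named otherwise list the members of a group or are marked in the text. Alternatives were pseudocounts of 0.1 and 0.01, no filter, a mean of at least 5 FPKM, TPM, median-ratio and quantile scaling, no moderation, robust eBayes, a replicate block, a loess correction for GC content and length (with and without the block), and leaving out each library. Permutation tests used scipy 1.17.1 and figures matplotlib 3.10.9.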

Additional observations from a re-analysis of the deposited data

How the results depend on the processing

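The number of the 10 pathway genes with an adjusted p under 0.05, 4 as reported, was 2 without moderation of the variance, where AMOTL2 (adjusted p = 0.076) and ANKRD1 (0.099) lost the call, and 1 to 5 when 1 library was left out. Over all tested genes the number was 834 without moderation, 923 with the replicate block, 3523 after the correction for GC content and length, 2737 with that correction and the block, and 293 to 3514 when 1 library was left out, against 1399 as reported. Of the 22 tested other targets, 9 passed after the correction, where 28.6% of all tested genes passed, against 4 as reported. With the block added 7 passed, where 2737 of 12322 tested genes did. With 1 library left out 3 to 9 passed, in settings where 2.38% to 28.5% of all tested genes passed. The other Hippo genes numbered 5 and 4 under those corrections, 0 with the replicate block and 0 with a mean of at least 5 FPKM (2 had an unadjusted p under 0.05 in limma in each), and 0 to 4 with 1 library left out, against 1. Of 179 alternative values of the 10 genes, 162 kept direction and side of the threshold, 13 lost the call, 2 gained it and 2 changed sign: LATS2 at -0.017 without lentivirus-circCSPP1 replicate 1, and AMOTL1 at 0.0013 without lentivirus-NC replicate 2. With 1 library left out, AMOTL1 ranged from -0.11 to 0.0013 and TEAD3 from -0.19 to 0.036, positive without lentivirus-NC replicate 2 (0.018) or lentivirus-circCSPP1 replicate 2 (0.0017) or 3 (0.036). The causes were not tested. With a mean of at least 5 FPKM, ANKRD1 was not tested, nor was FAT4, the other Hippo gene called in the main fit. The main fit did not pair libraries by replicate number, and the numbers may or may not pair them. Deviations from the group means had correlations of 0.073, 0.0065 and 0.057 between libraries with the same number. Between libraries with different numbers they lay between -0.067 and 0.036. Replicates 1 and 3 of lentivirus-circCSPP1 correlated most with the same number, and replicate 2 most with lentivirus-NC replicate 3 (0.036). With the block, GADD45A (adjusted p = 0.053) and FAT4 (0.11) lost their calls, CCDC80 fell (-0.75, adjusted p = 0.024), and the calls of the 10 genes did not change.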
